A study of Rattus norvegicus with 20 samples.

Results

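Of 14557 genes measured in epididymal tissue of ZDF rats, 58 belong to the enzyme families that oxidise or reduce retinol, aldehydes, ketones and quinones. They were taken by symbol, as the genes whose names begin with Rdh, Adh, Aldh, Akr, Cbr, Dhrs or Retsat. The families themselves were chosen with earlier results of these data known. Shares of this set beside all genes are therefore descriptive and not an independent test. The choice gave 7 Rdh, 7 Adh, 13 Aldh, 17 Akr, 4 Cbr and 9 Dhrs genes and Retsat. Each was read from 1 probe set that named no other gene, and Cbr1 alone had another such probe set. In rats given rosiglitazone, 11 of the 58 genes rose relative to obese rats (19%, beside 6.32% of all genes). Another 2 fell (3.4%, beside 2.68%), a share near that background. Rdh12, Cbr1 and Akr1c15 had the 3 largest rises. In obese rats Cbr1 and Adhfe1 fell relative to lean control rats (3.4% of the 58, beside 0.137% of all genes). With resveratrol no gene passed the test relative to obese rats, in these families or among all 14557 genes.

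Most enzymes of these families move hydride between a nicotinamide cofactor and a carbonyl or alcohol group. Fat stores retinol as esters, retinol is oxidised to retinaldehyde by short-chain dehydrogenases, and Aldh1a enzymes oxidise retinaldehyde further to retinoic acid, the ligand of nuclear retinoic acid receptors. Reductases of the same families run the retinaldehyde step backwards or clear reactive aldehydes from lipid peroxidation, prostaglandins, steroids and quinones, usually with NADPH.

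The samples came from male ZDF rats, a line derived from Zucker rats in which obese animals lack a working leptin receptor. There were 5 arrays in each of 4 groups: rats given rosiglitazone, rats given resveratrol, obese rats and lean control rats. Rosiglitazone is an insulin-sensitising agonist of PPAR-gamma, the nuclear receptor that drives fat cell formation, and resveratrol is a plant polyphenol. Whether the treated rats were obese is not in their titles; they are treated here as obese animals that received the compound. The obese animals had a stock diet for 6 weeks and the lean ones standard chow, so obesity and diet cannot be told apart in that comparison. The sources used here do not give age, dose, route, treatment time or what the treated rats ate. The arrays are labelled as biological replicates, 1 sample each.

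The labels name the tissue only as epididymal. The 9 measured adipocyte markers averaged 8.58 to 9.28 log2 units per array, and all 10 measured epididymal and sperm markers were near background in every comparison. Here near background means a group mean under 3.11 log2 units, the 95th percentile over 1282 receptor genes for smell, pheromones and taste. Lean control replicate 3 stood apart. Its macrophage markers averaged 6.69, against 4.95 to 5.49 in the other 4 lean control arrays, and its signal SD was 1.95, against 1.59 to 1.76. Signal SD ran from 1.78 to 1.95 in obese, 1.81 to 1.97 in resveratrol and 1.90 to 2.01 in rosiglitazone arrays. The other 4 lean control arrays thus lay below every array of the other groups. Of all genes, 6.32% rose and 2.68% fell in rosiglitazone rats relative to obese rats. Of 8 endothelial markers 6 fell and 1 rose (array means 4.83 to 5.19, against 5.64 to 6.29 in obese rats). Of 9 fibroblast markers 5 fell and none rose (5.97 to 7.06, against 7.08 to 7.67 in obese rats). No macrophage marker of 12 passed the test with rosiglitazone. Of 9 adipocyte markers 2 rose (9.07 to 9.23, against 8.82 to 9.05 in obese rats). Of 9 liver markers only Alb passed, higher, and the other 8 were near background in both groups. In such bulk samples fewer cells of a type and less RNA per cell cannot be told apart.

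Above background in all 4 groups were 27 of the 58 genes, another 8 were so in 1 to 3 groups and 23 in none. Signals of different genes come from different probes, so levels are compared only within a gene. The 23 genes near background throughout were Rdh5, Rdh8, Rdh9, Aldh1b1, Aldh1l2, Aldh3a1, Aldh3b1, Adh1-ps1, Adh4, Adh6, Adh7, Akr1b7, Akr1b10, Akr1c1, Akr1c3, Akr1c12, Akr1c12l1, Akr1c13, Akr1d1, Akr7a3, Cbr1l3, Dhrs7c and Dhrs7l1. They include the cis-retinol dehydrogenase Rdh5 of the retinal pigment epithelium, the steroid reductase Akr1d1 of the liver and the retinol- and ethanol-oxidising Adh4 and Adh7.

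The comparison of rosiglitazone with obese rats asked how the drug altered this enzyme set in obese fat. The 11 genes that rose make up 19% of the 58, beside 6.32% of all genes tested. The 2 that fell make up 3.4%, beside 2.68% of all genes, a share near that background. The median log2 difference was 0.12 over the 58 genes and 0.04 over all genes. The 5 arrays of each group did not overlap for 13 of the 58 genes, 11 of them higher and 2 lower, beside 10.2% of all genes. Values below are log2 signal per array in the order of replicates 1 to 5, and differences are log2 with the SE of the limma fit.

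**Figure D1:**
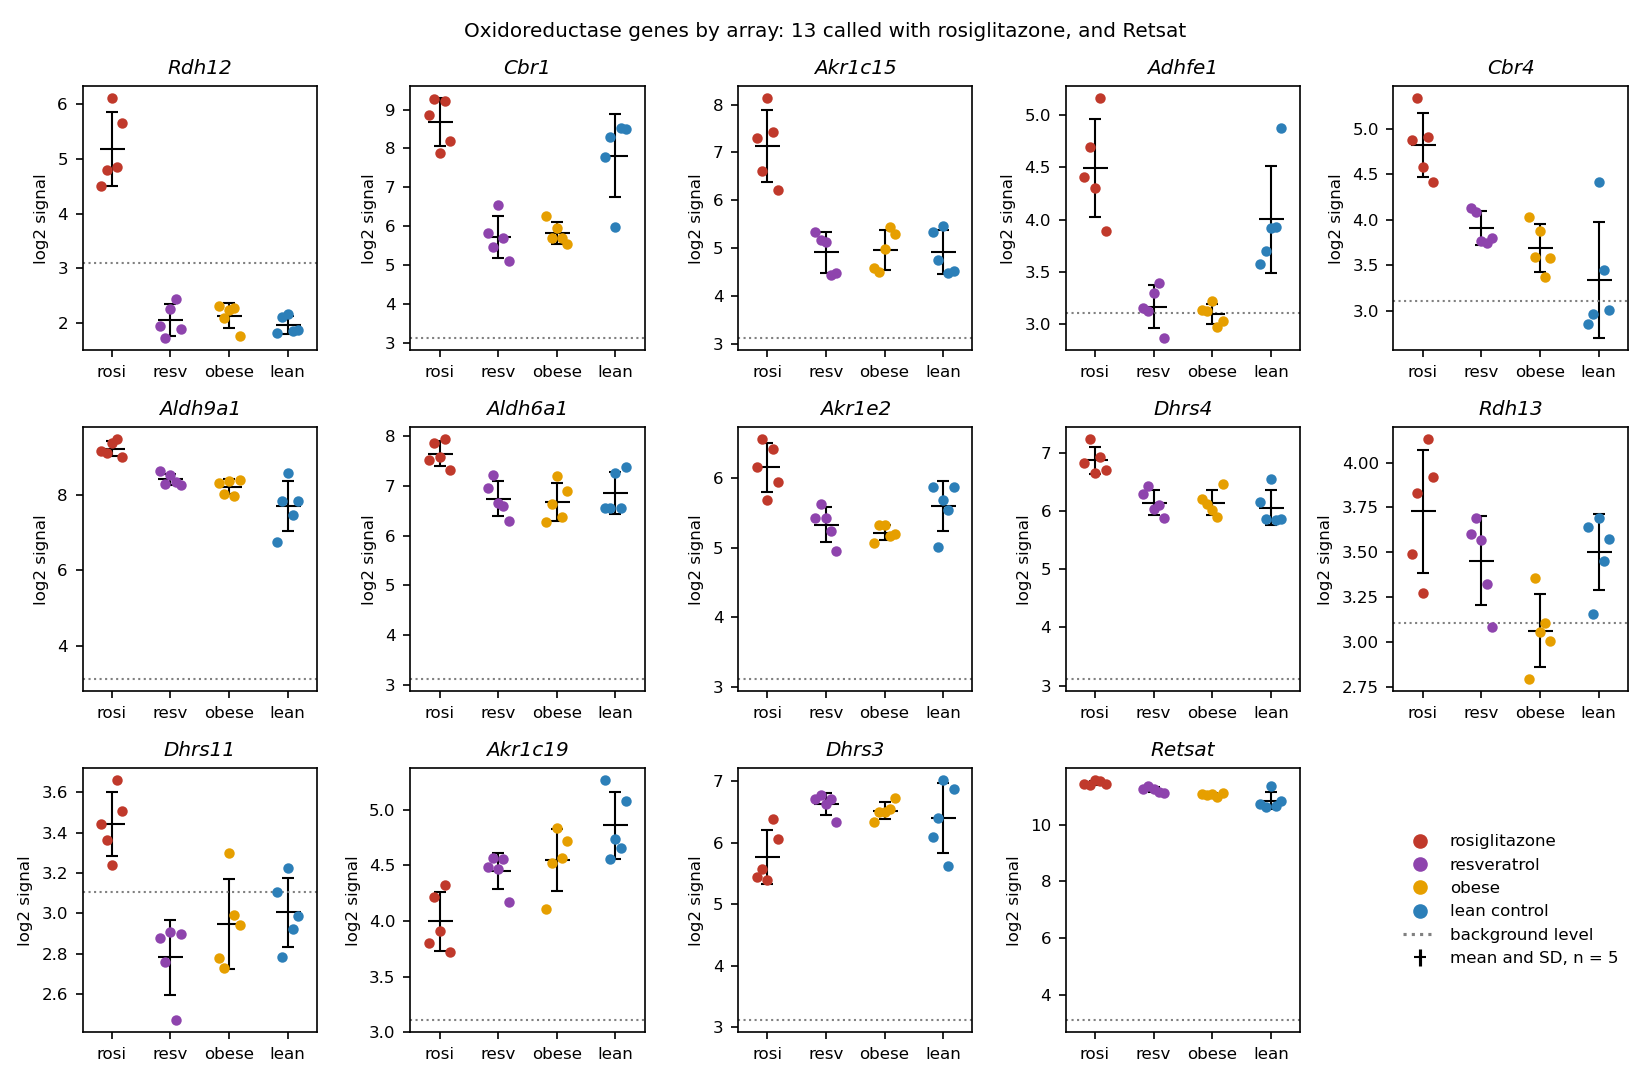
Log2 signal of the 13 genes past the threshold with rosiglitazone and of Retsat, 1 panel per gene, with groups on the x axis. Points are arrays, black marks the mean and SD (n = 5) and the dotted line the background level of 3.11. All rosiglitazone points for Rdh12, Cbr1 and Akr1c15 lie above all obese points, and for Cbr1 lean control replicate 3 lies among the obese arrays.

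Grouped here as retinoid enzymes were 13 genes: the Rdh and Aldh1a genes, Dhrs3, Dhrs9 and Retsat. Of these 2 rose, 1 fell and 10 did not pass. Dhrs4, Adh1c, Adh4 and Adh7, which also act on retinoids, are counted further on with other groups. Rdh12 is a retinaldehyde reductase known from photoreceptors. It measured 4.5, 4.80, 6.11, 4.86 and 5.65 in rosiglitazone rats, against 2.31, 2.09, 2.25, 2.28 and 1.76 in obese rats. All 5 rosiglitazone arrays were above background and above every other array, while the other 3 groups were near background. The difference was 3.04 ± 0.22 (adjusted p = 1.65e-09), an 8.25-fold rise that is approximate because background signal enters the obese level. Its promoter is shown because no other gene of the set changed as much. It held no match to either motif described further on (RefSeq GRCr8, plus strand, chr6:103748207-103748506).
Rdh12 promoter: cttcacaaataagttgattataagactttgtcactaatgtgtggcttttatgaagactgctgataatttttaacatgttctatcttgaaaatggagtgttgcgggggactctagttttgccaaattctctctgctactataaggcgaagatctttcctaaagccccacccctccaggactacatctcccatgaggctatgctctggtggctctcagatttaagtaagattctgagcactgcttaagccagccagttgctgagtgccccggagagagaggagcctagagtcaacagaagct

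Rdh13, a mitochondrial member of the family, rose by a smaller amount. It had 3.49, 3.83, 3.28, 4.13 and 3.92 in rosiglitazone rats, against 2.79, 3.36, 3.05, 3.11 and 3.0 in obese rats, and obese replicate 2 exceeded rosiglitazone replicate 3. The difference was 0.67 ± 0.17 (adjusted p = 0.00976), with the obese mean near background. Dhrs3, which reduces retinaldehyde back to retinol and so limits retinoic acid, fell. It had 5.44, 5.56, 5.39, 6.38 and 6.06 in rosiglitazone rats, against 6.34, 6.49, 6.50, 6.55 and 6.72 in obese rats. Rosiglitazone replicate 4 lay above 1 obese array. The difference was -0.76 ± 0.22 (adjusted p = 0.0256). This call was lost without rosiglitazone replicate 1, 2 or 3 or without obese replicate 4 or 5 (adjusted p = 0.0756, 0.0636, 0.0806, 0.0545 and 0.0633), within a range of 0.000408 to 0.0806 over its 30 alternatives. Endothelial and fibroblast markers fell in the same arrays, and their part in the fall of Dhrs3 was not tested.

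Retsat, which saturates a double bond of retinol, missed the threshold narrowly while its arrays did not overlap. It had 11.42, 11.39, 11.57, 11.54 and 11.45 in rosiglitazone rats, against 11.06, 11.06, 11.08, 10.97 and 11.13 in obese rats. The difference was 0.41 (1.33-fold, adjusted p = 0.0524). It passed in 7 of 30 alternatives, among them without lean control replicate 2, 3 or 4 (adjusted p = 0.0464, 0.0131 and 0.0475), and its adjusted p ran from 0.00997 to 0.119. Rdh10, the main retinol-oxidising enzyme of the embryo, averaged 4.32 ± 0.25 in rosiglitazone rats and 4.20 ± 0.13 in obese rats (SD, n = 5 each; difference 0.12, adjusted p = 0.725). The 3 enzymes that make retinoic acid did not pass either. Aldh1a1 differed by 0.52 (adjusted p = 0.272), Aldh1a2 by 0.45 (adjusted p = 0.215) and Aldh1a3 by -0.05 (adjusted p = 0.92). Dhrs9, which oxidises retinol and steroids, differed by -0.25 and Rdh14, a retinaldehyde reductase, by 0.40, neither past the threshold. Rdh5 (-0.43, adjusted p = 0.103) passed without obese replicate 4 and with array weights, with adjusted p between 0.0281 and 0.257 over 29 alternatives.

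Other genes of retinoid handling and signalling (binding proteins, receptors, transporters, Cyp26 enzymes and esterifying enzymes) gave no call. Of 31 listed, 21 were measured, and 0 passed the limma test in any of the 4 comparisons. At an unadjusted p under 0.05 there were 2 with rosiglitazone relative to obese, Dgat1 (0.63), an acyltransferase that also esterifies retinol, and Rbp4 (0.54), the plasma carrier of retinol. The same count was 0 for resveratrol relative to obese, 3 for obese relative to lean control and 2 for rosiglitazone relative to resveratrol. Over all 14557 genes these counts were 3095, 410, 2651 and 2809, in the same order of comparisons. The median difference of the list with rosiglitazone was -0.11.

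Of 11 carbonyl and other short-chain reductases, 4 rose and 7 did not pass. Cbr1 reduces quinones, prostaglandins and many drugs with NADPH. Its brighter probe set measured 8.85, 9.27, 7.89, 9.21 and 8.19 in rosiglitazone rats, against 6.25, 5.69, 5.96, 5.69 and 5.53 in obese rats. The lowest rosiglitazone array lay above the highest obese array. The difference was 2.86 ± 0.36 (7.25-fold, adjusted p = 6.42e-06). The dimmer probe set separated the groups as well, with 7.41 to 9.24 in rosiglitazone rats, against 5.45 to 6.23 in obese rats. The promoter of Cbr1 is shown because this gene moved in both the drug and the obesity comparison, and it held no match to either motif (RefSeq GRCr8, plus strand, chr11:46346155-46346454).
Cbr1 promoter: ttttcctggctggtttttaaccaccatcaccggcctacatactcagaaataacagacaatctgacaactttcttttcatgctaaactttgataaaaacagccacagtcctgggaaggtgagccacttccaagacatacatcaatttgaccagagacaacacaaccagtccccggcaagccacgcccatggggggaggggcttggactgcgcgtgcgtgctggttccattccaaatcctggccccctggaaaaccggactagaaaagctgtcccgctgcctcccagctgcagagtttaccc

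Its neighbours on the chromosome differed from it. Cbr3, a close paralog, averaged 6.09 ± 0.47 in rosiglitazone rats and 5.65 ± 0.28 in obese rats (SD, n = 5 each; adjusted p = 0.326), and Cbr1l3 stayed near background in both groups. Cbr4 is a mitochondrial reductase of fatty acid synthesis. It had 4.87, 5.34, 4.58, 4.91 and 4.41 in rosiglitazone rats, against 4.03, 3.59, 3.88, 3.37 and 3.58 in obese rats. The groups did not overlap, and Cbr4 rose by 1.13 ± 0.23 (2.19-fold, adjusted p = 0.00146).

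Dhrs4, a peroxisomal NADPH-dependent reductase of retinaldehyde and other carbonyls, had 6.83, 7.24, 6.66, 6.93 and 6.71 in rosiglitazone rats, against 6.21, 6.13, 6.03, 5.90 and 6.47 in obese rats. Again the groups did not overlap (difference 0.72 ± 0.16, adjusted p = 0.00375). Dhrs11, a steroid ketoreductase, had 3.44, 3.36, 3.24, 3.66 and 3.51 in rosiglitazone rats, against 2.78, 2.73, 3.30, 2.99 and 2.94 in obese rats. Obese replicate 3 exceeded the lowest rosiglitazone array. The rise of 0.50 ± 0.14 (adjusted p = 0.0223), with the obese mean near background, was lost without rosiglitazone replicate 4 or obese replicate 1 or 2 (adjusted p = 0.0735, 0.064 and 0.0768), and over 29 alternatives the adjusted p ran from 0.00909 to 0.0768. Dhrs1, Dhrs7 and Dhrs2l1, also short-chain enzymes, differed by 0.25, 0.21 and -0.30 and did not pass.

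Of 17 aldo-keto reductases, 2 rose, 1 fell and 14 did not pass. Akr1c15 reduces aldehydes and ketones in rat tissues. It had 7.31, 6.62, 8.14, 7.44 and 6.21 in rosiglitazone rats, against 4.59, 4.49, 4.99, 5.45 and 5.30 in obese rats. The groups did not overlap, and the difference was 2.18 ± 0.29 (4.54-fold, adjusted p = 1.13e-05). Its promoter is shown because it held the antioxidant response element core TGACNNNGC at 2 places, in capitals. One is 69 to 61 bases before the start on the gene's strand, and the other is 140 to 132 bases before it on the opposite strand (RefSeq GRCr8, minus strand, chr17:71117908-71118207, written along the gene).
Akr1c15 promoter: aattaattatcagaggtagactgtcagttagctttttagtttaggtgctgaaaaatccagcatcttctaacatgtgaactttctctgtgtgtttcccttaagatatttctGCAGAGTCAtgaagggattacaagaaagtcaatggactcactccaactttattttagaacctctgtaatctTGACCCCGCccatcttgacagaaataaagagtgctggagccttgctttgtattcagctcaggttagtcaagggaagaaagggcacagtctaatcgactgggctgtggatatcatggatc

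Akr1c15 is one of 9 neighbouring aldo-keto reductase genes, in the RefSeq order Akr1e2, Akr1c1, Akr1c12l1, Akr1c13, Akr1c19, Akr1c12, Akr1c3, Akr1c14 and Akr1c15. With rosiglitazone the 2 genes at the ends of this run rose, Akr1c19 within it fell and 6 did not pass. Akr1e2, a reductase of anhydrofructose, had 6.16, 6.56, 5.68, 6.42 and 5.95 in rosiglitazone rats, against 5.06, 5.33, 5.33, 5.17 and 5.20 in obese rats. All rosiglitazone arrays were above all obese arrays (difference 0.94 ± 0.18, adjusted p = 0.000857). Akr1c19 had 3.81, 4.21, 3.91, 4.32 and 3.72 in rosiglitazone rats, against 4.11, 4.52, 4.83, 4.56 and 4.72 in obese rats. The groups overlapped through obese replicate 1. Its fall of 0.55 ± 0.17 (adjusted p = 0.0337) was lost without rosiglitazone replicate 1, 3 or 5 (adjusted p = 0.0856, 0.0724 and 0.095) or obese replicate 2, 3, 4 or 5 (adjusted p = 0.0623, 0.0923, 0.0678 and 0.0818). Over 30 alternatives the adjusted p ran from 0.00663 to 0.095. Akr1c14, a hydroxysteroid dehydrogenase, differed by 0.56 (adjusted p = 0.288). Akr1c3 (-0.48, adjusted p = 0.0688) was near background and passed in 5 of 29 alternatives, among them without lean control replicate 3 or rosiglitazone replicate 5 (range 0.0164 to 0.197). These genes are close relatives, and signal shared between their probes could not be separated here, so the levels of single Akr1c genes are uncertain. The same holds for the Akr1b, Adh, Cbr1 and Cbr3, and Dhrs4 groups.

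**Figure D2:**
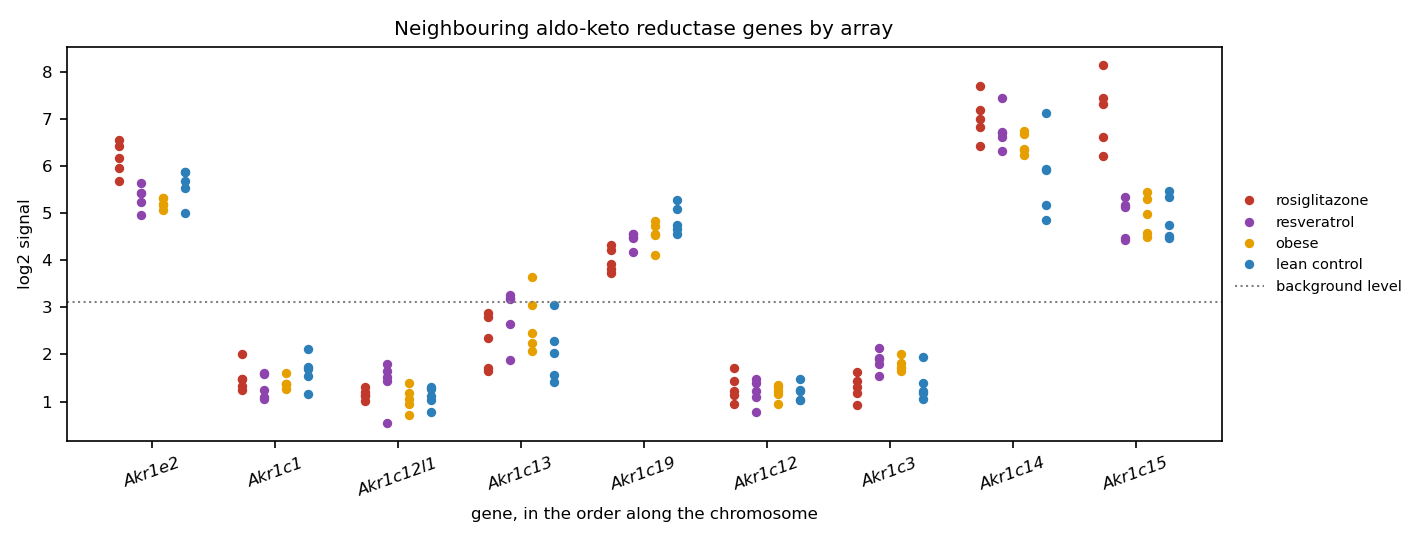
Log2 signal by array (y axis) of neighbouring aldo-keto reductase genes in chromosome order (x axis), coloured by group, with the background level of 3.11 dotted. Akr1e2 and Akr1c15 at the ends are higher in all rosiglitazone arrays than in all obese arrays, while Akr1c1 and Akr1c12 lie near background in all groups.

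In the Akr1b group 0 of 4 genes passed the limma test, and 2 had an unadjusted p under 0.05, beside 3095 of 14557 genes. Akr1b8, an aldose reductase-like protein, had 4.94, 3.94, 4.62, 2.08 and 3.37 in rosiglitazone rats, against 2.16, 3.07, 2.02, 2.31 and 3.66 in obese rats. Rosiglitazone replicate 4 was as low as the obese arrays while replicates 1 and 3 were high. The difference of 1.15 had an adjusted p of 0.0648, which became 0.00275 without rosiglitazone replicate 4, 0.0224 without obese replicate 5 and 0.0447 without lean control replicate 3 (range 0.00275 to 0.196 over 29 alternatives). Akr1b1, the aldose reductase of the polyol pathway, had 7.70, 7.56, 7.54, 7.79 and 7.59 in rosiglitazone rats, against 7.16, 6.77, 7.10, 6.85 and 7.48 in obese rats. Its groups did not overlap, but the adjusted p was 0.332 for a difference of 0.56. Lean control arrays of Akr1b1 spread from 4.95 to 8.01 and enter the error of this fit; with only the 10 arrays compared the adjusted p was 0.0168, the lowest of its 30 alternatives (highest 0.849). Akr1b10 (-0.55, adjusted p = 0.0728) and Akr1b7 (-0.21, adjusted p = 0.554) were near background. Akr1a1, a general aldehyde reductase, differed by 0.14, Akr7a2, which reduces succinic semialdehyde, by 0.25, Akr7a3 by 0.07 and Akr1c1 and Akr1d1 by 0.11 and 0.05, none past the threshold.

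Of 10 aldehyde dehydrogenases outside the retinoid group, 2 rose. Aldh9a1 oxidises an aldehyde on the route to carnitine. It had 9.16, 9.11, 9.37, 9.48 and 9.0 in rosiglitazone rats, against 8.32, 8.03, 8.37, 7.98 and 8.39 in obese rats. The groups did not overlap (difference 1.0 ± 0.21, 2.01-fold, adjusted p = 0.00249). Aldh6a1, the mitochondrial semialdehyde dehydrogenase of valine and thymine breakdown, had 7.52, 7.86, 7.59, 7.95 and 7.33 in rosiglitazone rats, against 6.28, 6.65, 7.19, 6.39 and 6.90 in obese rats. It too rose without overlap, by 0.97 ± 0.21 (1.96-fold, adjusted p = 0.00258). Aldh2, the mitochondrial acetaldehyde dehydrogenase, averaged 7.32 ± 0.15 in rosiglitazone rats and 7.26 ± 0.29 in obese rats (SD, n = 5 each; adjusted p = 0.907). Aldh7a1 of lysine breakdown differed by 0.44 (adjusted p = 0.189) and Aldh18a1 of proline synthesis by 0.55 (adjusted p = 0.102). Aldh7a1 passed in 1 of 30 alternatives, with only the 10 arrays compared (adjusted p = 0.038, highest 0.501).

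Among 7 alcohol dehydrogenase genes, which include the transcribed pseudogene Adh1-ps1, only Adhfe1 rose. This mitochondrial enzyme oxidises gamma-hydroxybutyrate. It had 4.41, 4.69, 4.30, 5.16 and 3.89 in rosiglitazone rats, against 3.14, 3.13, 3.22, 2.98 and 3.04 in obese rats. No array overlapped, and the difference was 1.39 ± 0.21 (2.62-fold, adjusted p = 7.48e-05), an approximate fold because the obese mean was near background. Adh1c, which oxidises ethanol and retinol, pointed the other way without passing. Its arrays had 2.69, 2.57, 2.75, 3.03 and 2.57 in rosiglitazone rats, against 3.28, 3.04, 3.86, 3.09 and 3.24 in obese rats (difference -0.58, adjusted p = 0.115). These groups did not overlap, and the rosiglitazone mean was near background. Adh1c passed in 2 of 29 alternatives, with the array SD as a covariate and with only the 10 arrays compared (adjusted p = 0.0245 and 0.0281, highest 0.272). Adh5, which clears formaldehyde with glutathione, differed by 0.31 (adjusted p = 0.256), and Adh4 and Adh7 were near background.

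Grouped by place in the cell rather than by family, 4 of 8 mitochondrial enzymes rose and 0 fell relative to obese rats, beside 6.32% higher and 2.68% lower of all genes, with a median difference of 0.61. The 4 that rose were Adhfe1, Cbr4, Aldh6a1 and Rdh13. Aldh2, Aldh18a1, Aldh1b1 and Aldh1l2 did not pass, the last 2 being near background in every group. The count depends on which enzymes are placed in mitochondria, and Aldh7a1 (0.44, adjusted p = 0.189) was counted with the other 50 genes. Of the other 50 genes 7 rose and 2 fell, with a median of 0.09. Relative to resveratrol, 3 of the 8 were higher with rosiglitazone and 0 lower (median 0.47), beside 5.63% higher and 1.92% lower of all genes. This grouping was made with the results known and was not tested.

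**Figure D3:**
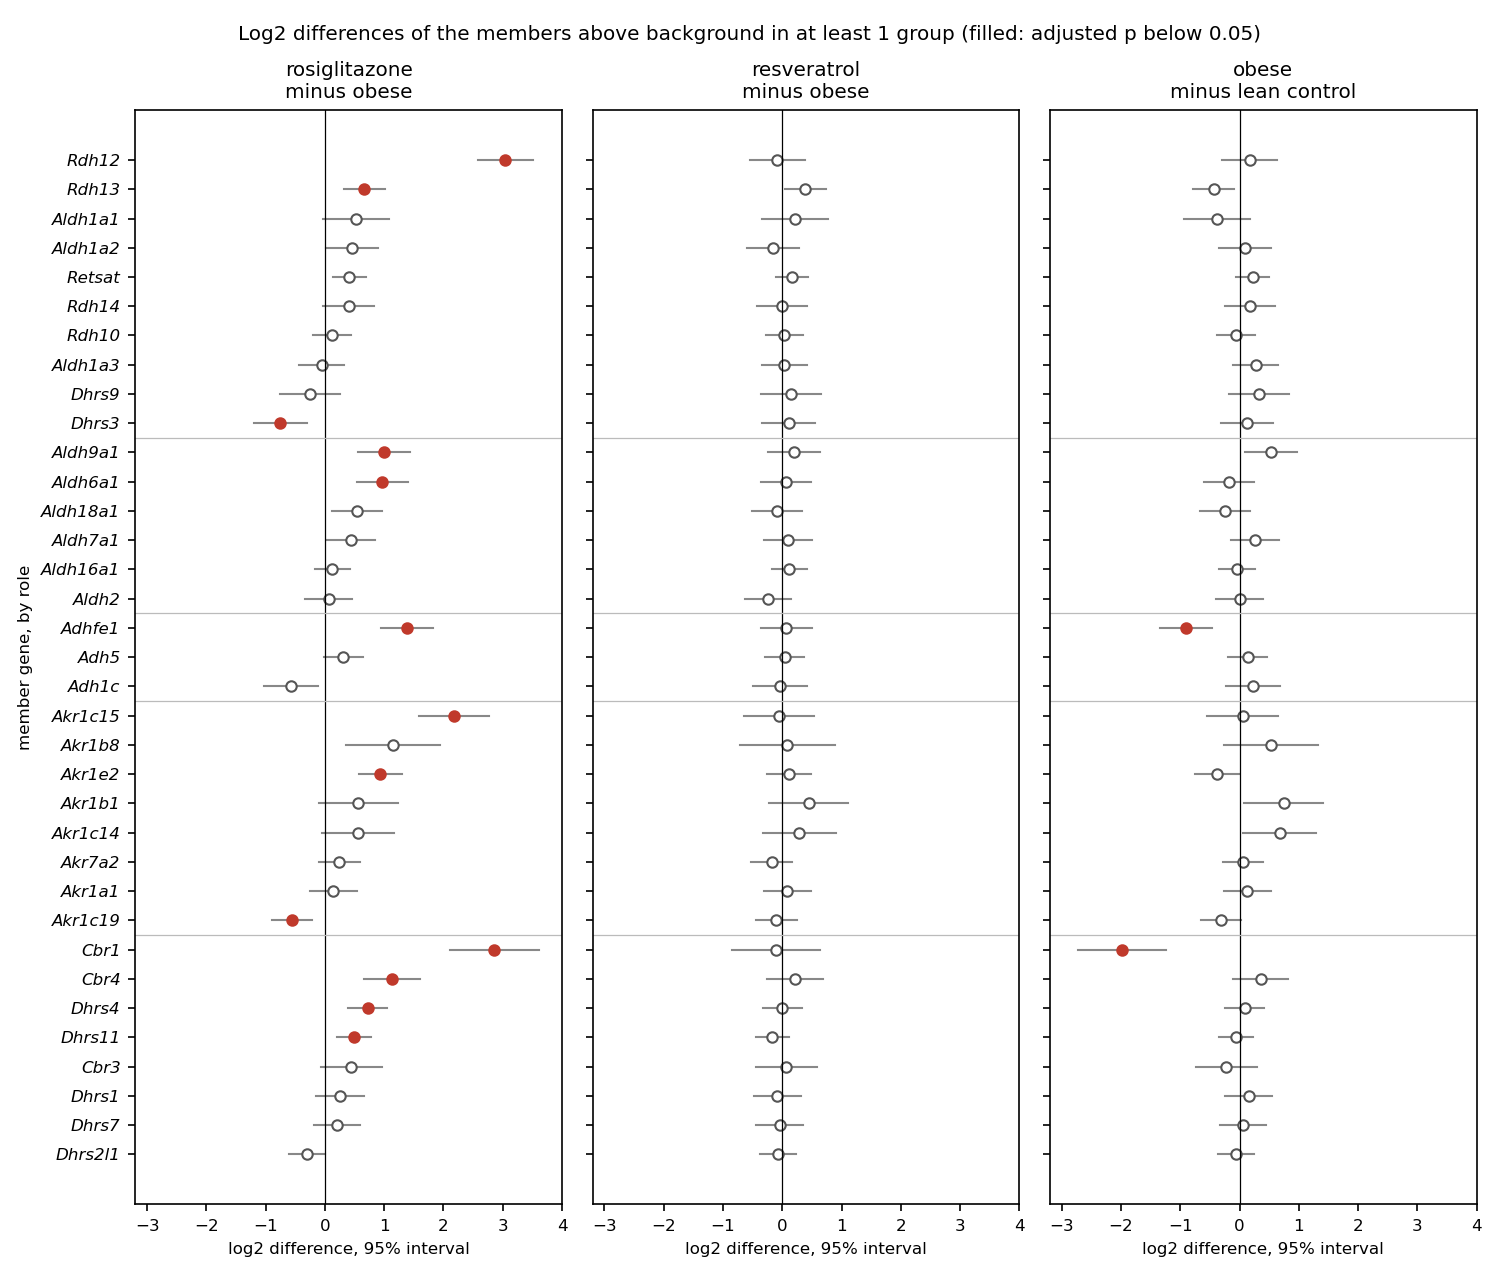
Log2 differences with 95% intervals (x axis) of the genes above background in at least 1 group, ordered by role (y axis), in 3 panels for rosiglitazone minus obese, resveratrol minus obese and obese minus lean control. Filled points have an adjusted p below 0.05. Rdh12, Cbr1 and Akr1c15 lie farthest to the right in the first panel, all points of the middle panel are open, and Cbr1 and Adhfe1 are filled in the last.

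Several of these enzymes use NADPH, and some are known targets of NRF2, the transcription factor of the oxidant response. Of 27 listed NRF2 targets and regulators 18 were measured. With rosiglitazone 6 rose, 0 fell and 12 did not pass relative to obese rats, beside 6.32% of all genes higher. Me1, which makes NADPH from malate, was 9.31-fold higher, the pentose phosphate enzymes Tkt and Taldo1 2.65-fold and 1.88-fold, the thioredoxin Txn1 1.79-fold, its reductase Txnrd1 1.45-fold and the glutathione-synthesis subunit Gclc 1.41-fold. Over arrays the list averaged 5.75 to 5.92 in rosiglitazone rats, against 5.15 to 5.44 in obese rats. Its median difference was 0.45. A part of NRF2 in the rises of these genes or of the enzyme set was not tested.

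Promoters of 300 bases, 250 before the start and 50 after it, were found in RefSeq GRCr8 for 45 of the 58 genes, 1 per gene. The shares of all promoters below rest on 33469 promoters of this length. The core TGACNNNGC, searched on both strands, was in 12.1% of all promoters and in 5 of the 45. These were 2 of the 9 that rose with rosiglitazone (Akr1c15 and Aldh9a1) and 3 of the 34 that did not pass. A direct repeat of the half-site AGGTCA with 1 base between copies, the arrangement bound by PPAR and retinoid X receptor pairs, was searched on both strands with up to 2 mismatches. It was in 3.77% of all promoters and in 6 of the 45. These were 1 of the 9 that rose, none of the 2 that fell and 5 of the 34 that did not pass. The 1 that rose was Aldh6a1. Its promoter is shown with the match in capitals 148 to 136 bases before the start, on the opposite strand (minus strand, chr6:109829676-109829975, written along the gene). A match describes letters in this window and is not a binding site shown by these data.
Aldh6a1 promoter: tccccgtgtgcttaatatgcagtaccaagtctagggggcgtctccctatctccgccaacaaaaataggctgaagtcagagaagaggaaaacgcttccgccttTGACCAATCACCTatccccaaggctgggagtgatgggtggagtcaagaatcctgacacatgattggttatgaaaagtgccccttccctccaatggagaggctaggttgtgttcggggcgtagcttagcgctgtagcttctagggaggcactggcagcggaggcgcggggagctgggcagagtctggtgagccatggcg

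The comparison of obese with lean control rats asked what obesity altered. No gene of the 58 rose, beside 0.584% of all genes, and 2 fell, which is 3.4% beside 0.137% of all genes. Another 8 had an unadjusted p under 0.05. This made 10 of the 58, beside 2651 of all 14557 genes, a share near that background. The median difference was -0.04, against 0.01 over all genes. Only 1 of the 58 had groups that did not overlap, beside 2.13% of all genes.

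Cbr1 had 6.25, 5.69, 5.96, 5.69 and 5.53 in obese rats, against 7.77, 8.28, 5.97, 8.52 and 8.5 in lean control rats. Lean control replicate 3 lay among the obese arrays, and the other 4 lean control arrays lay above them all. The difference was -1.98 ± 0.36 (3.96-fold lower, adjusted p = 0.0164). Without lean control replicate 3 it was -2.44 (adjusted p = 6.09e-06). The call was lost without lean control replicate 2, 4 or 5 or obese replicate 3 or 5, with adjusted p of 0.0545, 0.0656, 0.0535, 0.0501 and 0.0514; over 30 alternatives it ran from 6.09e-06 to 0.24. The dimmer probe set also fell, by 1.27 (adjusted p = 0.0258), and there the obese arrays, at 5.45 to 6.23, did not overlap the lean control arrays, at 6.51 to 7.42. Across groups Cbr1 was at 8.68 ± 0.62 with rosiglitazone, 5.72 ± 0.53 with resveratrol, 5.82 ± 0.29 in obese and 7.81 ± 1.07 in lean control rats (SD, n = 5 each). Macrophage markers also differed between obese and lean control rats, with 3 of 12 higher, beside 0.584% of all genes. Their array means were 5.95 to 6.63 in obese rats, against 4.95 to 6.69 in lean control rats, where the highest was replicate 3. The part of these markers in the fall of Cbr1 was not tested.

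**Figure D4:**
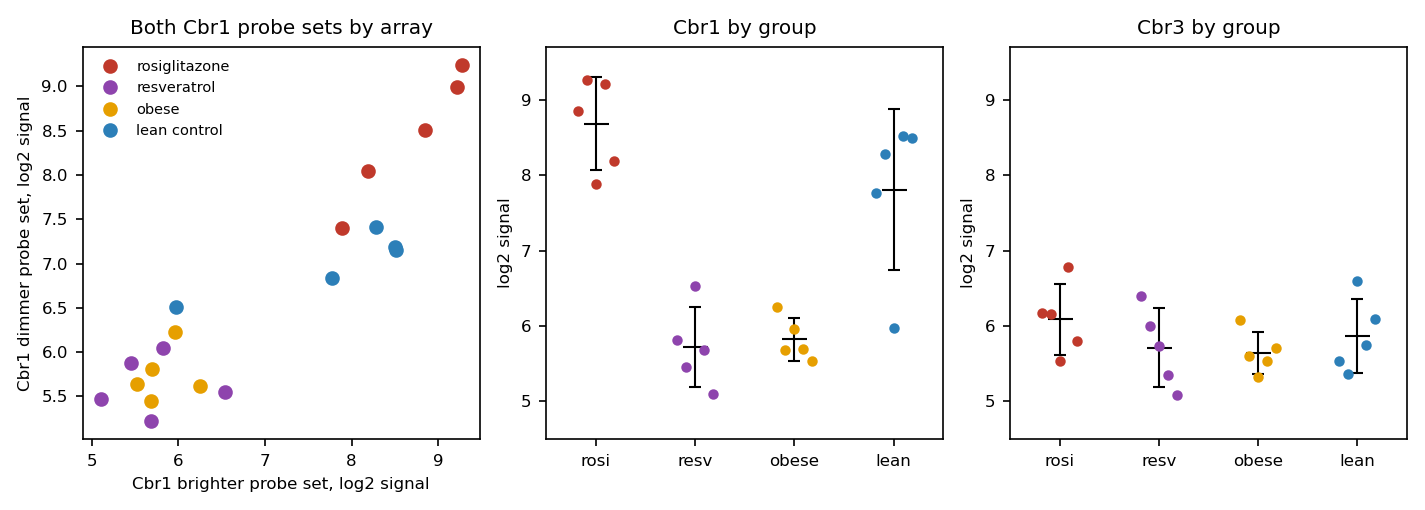
Left, the log2 signal of the dimmer Cbr1 probe set (y axis) against the brighter one (x axis), 1 point per array. The other panels show Cbr1 (brighter probe set) and Cbr3 by group in log2 signal, with the mean and SD (n = 5). Cbr1 is highest in 3 rosiglitazone arrays and lowest in obese and resveratrol arrays, with lean control replicate 3 among these, while the groups of Cbr3 overlap.

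Adhfe1 had 3.14, 3.13, 3.22, 2.98 and 3.04 in obese rats, against 3.57, 3.71, 3.92, 3.93 and 4.88 in lean control rats. The groups did not overlap, and lean control replicate 5 was the highest. The difference was -0.90 ± 0.21 (1.87-fold lower, adjusted p = 0.0462). The obese mean was near background, so this fold is approximate. The call held in 12 of 30 alternatives (adjusted p from 0.00986 to 0.24). It was lost without lean control replicate 1, 2, 4 or 5 (0.0564, 0.0873, 0.122 and 0.092) and without any 1 of the 5 obese arrays (0.0646, 0.0912, 0.114, 0.0683 and 0.123). Leaving out rosiglitazone replicate 1 or 3 or resveratrol replicate 1, 2, 3 or 4 lost it too, with adjusted p of 0.0525 to 0.0589. Cbr1 and Adhfe1 were thus the genes both lower in obese than in lean control rats and higher with rosiglitazone than in obese rats. These comparisons share the obese arrays, so a low obese value enters both.

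How many genes passed depended on single arrays, both calls being lost without lean control replicate 2, 4 or 5 or obese replicate 3 or 5. Without lean control replicate 3, 9 of the 58 passed, while calls over all genes grew as well. The 6 then higher in obese rats make up 10.3%, beside 10.2% of all genes, a share near that background, and the 3 then lower 5.17%, beside 2.6%. The 6 were Akr1b1 (1.17), Akr1c14 (1.01), Aldh9a1 (0.74), Cbr4 (0.62), Akr1c3 (0.56, near background) and Retsat (0.35), with adjusted p of 0.00232 to 0.0461. The 3 were Cbr1, Adhfe1 and Aldh1b1 (-0.63, adjusted p = 0.031). With all arrays, the differences of those 6 genes were 0.75, 0.67, 0.52, 0.35, 0.42 and 0.22, with adjusted p of 0.182 to 0.408.

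With resveratrol 0 of the 58 genes were higher and 0 lower than in obese rats in the limma fit, beside 0% higher and 0% lower of all genes. At an unadjusted p under 0.05 there were 2 of the 58 and 410 of all genes, and no gene of the set had groups that did not overlap, beside 0.598% of all genes. The smallest p-values belonged to Rdh13 (0.39, 95% interval 0.05 to 0.73), Akr1b7 (-0.38, near background) and Akr1c12l1 (0.33, near background), all at an adjusted p of 0.999. The 95% interval lay within 2-fold in either direction for 57 of the 58, of which 28 were near background in both groups. The exception was Akr1b1, with an interval of -0.22 to 1.11 around 0.45. For the 3 genes with the largest rises under rosiglitazone, the intervals of the resveratrol difference were -0.54 to 0.38 for Rdh12, -0.85 to 0.64 for Cbr1 and -0.65 to 0.54 for Akr1c15. The median over the 58 genes was 0.04, against -0.00 over all genes.

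Set directly against resveratrol, rosiglitazone gave 10 genes higher (17.2%, beside 5.63% of all genes) and 2 lower (3.4%, beside 1.92%). Groups did not overlap for 11 of the 58, all higher with rosiglitazone, beside 7.94% of all genes. Rdh12 had 4.5, 4.80, 6.11, 4.86 and 5.65 with rosiglitazone, against 1.95, 1.72, 2.27, 2.44 and 1.89 with resveratrol, a difference of 3.13 (adjusted p = 9.11e-10). Cbr1 differed by 2.96 (7.80-fold), Akr1c15 by 2.24 (4.72-fold) and Adhfe1 by 1.32 (2.5-fold). The others higher were Cbr4 (0.92), Aldh6a1 (0.90), Akr1e2 (0.82), Aldh9a1 (0.81), Dhrs4 (0.72) and Dhrs11 (0.66), with adjusted p of 0.00299 to 0.0168. Aldh9a1 lost the call without rosiglitazone replicate 4 (adjusted p = 0.0537; range 0.00105 to 0.0543). Dhrs3 was lower, with 5.44, 5.56, 5.39, 6.38 and 6.06 with rosiglitazone, against 6.72, 6.78, 6.62, 6.71 and 6.33 with resveratrol (-0.87, adjusted p = 0.0118). In the same comparison 6 of 8 endothelial markers were lower and 1 higher (array means 4.83 to 5.19 with rosiglitazone, against 5.69 to 6.12 with resveratrol), and 5 of 9 fibroblast markers were lower and none higher (5.97 to 7.06, against 7.28 to 7.67). Their part in the lower Dhrs3 was not tested. Akr1c3, near background in both groups, also was lower (-0.56, adjusted p = 0.0331). That call was lost in 6 of 29 alternatives, all without 1 array: rosiglitazone replicate 2, 3 or 4 or resveratrol replicate 1, 3 or 4 (adjusted p = 0.0578 to 0.117; range 0.00653 to 0.117). Aldh18a1 missed the threshold (0.64, adjusted p = 0.0577) and passed in 7 of 30 alternatives (range 0.0229 to 0.197), among them without lean control replicate 3, rosiglitazone replicate 1 or 4 or resveratrol replicate 1 or 2. Rdh13 did not pass here (0.28, adjusted p = 0.394), nor did Akr1c19 (-0.45, adjusted p = 0.104). Both rosiglitazone comparisons use the same 5 rosiglitazone arrays. Of the listed NRF2 targets, Me1, Tkt and Txn1 were higher with rosiglitazone than with resveratrol and none was lower. The other 15 of the 18 measured did not pass.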

How the data were processed

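Total RNA, 100 ng per sample, was hybridised to Affymetrix Rat Gene 2.1 ST arrays, 1 per sample. The deposited values are log2 signals that the authors made with RMA (version not given), per the submitters' processing notes. No column lacked a sample. Of 36685 features, 14824 named 1 gene, 829 several and 21032 none in the array annotation. The probe set brightest on average across the 20 arrays stood for each of 234 genes with several, leaving 14557 genes. Group means were fitted over all 20 arrays with limma 3.58.1 in R 4.3.3 (moderated variances, Benjamini-Hochberg adjustment over all genes, threshold 0.05), and every adjusted p in the text is from this fit or a named alternative of it. In the main fit p-values set each difference against the spread between arrays, pooled over the 4 groups and moderated across genes. The number of arrays limits precision. The code was tested on simulated data. Named were all genes of the set past the threshold, the 3 smallest p-values where none passed, and a written list. Some of the genes whose result turned on an array or probe set were also named, chosen after their values were seen. Not every such result is given. Rdh11, Aldh3a2, Aldh4a1 and Aldh1l1 of the written list were not analysed here. The gene set and all lists were chosen with earlier results of these data known. Alternatives changed normalisation, array SD, probe sets, dim genes, variance model, weights, arrays used and the replicate block, and left out each array. The setting with the dimmer Cbr1 probe set was added after seeing the data. Deviations of same-numbered arrays from their group means correlated at 0.06 to 0.40 for obese and lean control, -0.02 to 0.16 for rosiglitazone and obese, -0.14 to 0.04 for resveratrol and obese and -0.08 to 0.11 for rosiglitazone and resveratrol. In no comparison were all 5 over 0.1, so replicate numbers were not taken as pairs. The genome build of the array annotation was not given in the sources used here; gene order and promoters are RefSeq GRCr8. Plots used matplotlib 3.10.9.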

Additional observations from a re-analysis of the deposited data

Results flagged for a closer look

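In 121 combinations of a gene of the set and a group in which it was above background, 3 had an array far from the other 4, by a gap over 0.71 of the group's range. Chance gives about 1 in 20 such groups. Adhfe1 was at 4.88 in lean control replicate 5, against 3.57 to 3.93 in the other lean control arrays. Akr1c19 was at 4.17 in resveratrol replicate 5, against 4.47 to 4.56 in the others. Retsat was at 11.4 in lean control replicate 3, against 10.6 to 10.8 in the others.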

How the results depend on the processing

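The counts of genes past the threshold were 13 for rosiglitazone relative to obese (11 to 19 over 30 alternatives), 12 for rosiglitazone relative to resveratrol (10 to 14) and 0 for resveratrol relative to obese in every alternative. For obese relative to lean control the count of 2 became 0 with the array SD as a covariate, 1 with trend and robust moderation, 6 with array weights (3 higher and 3 lower) and 1 with only the 10 arrays compared. Leaving out 1 array gave 0 to 9. The replicate block, though the numbers were not taken as pairs, left counts of 13, 12, 0 and 2, and for rosiglitazone relative to obese it lost Akr1c19 (adjusted p = 0.0565) and added Akr1b10 (adjusted p = 0.0217). With the SD covariate Cbr1 in obese relative to lean control rats was -1.33 and Adhfe1 -0.95 (adjusted p = 0.24 for both). Aldh9a1 in rosiglitazone relative to resveratrol was 0.64 with this covariate (adjusted p = 0.0543). Array SD was lower in lean control arrays other than replicate 3 than in all other groups, so this covariate overlaps with group. The cause of these lost calls was not tested. No called gene changed direction. Rdh12, Cbr1, Akr1c15, Adhfe1, Cbr4, Aldh9a1, Aldh6a1, Akr1e2, Dhrs4 and Rdh13 passed for rosiglitazone relative to obese in every alternative that tested them. Rdh12, Dhrs11 and Akr1c3 had no value with dim genes left out. Over all genes the split of 920 higher and 390 lower became 748 and 661 under quantile normalisation and 712 and 681 with the SD covariate. For rosiglitazone relative to resveratrol 820 and 280 became 580 and 506, and 640 and 576. For obese relative to lean control 85 and 20 became 43 and 29, and 0 and 0. Over all genes of that comparison, the calls numbered 1478 higher and 378 lower without lean control replicate 3, 3 and 1 without obese replicate 3, 862 and 240 with array weights, 24 and 7 with only the 10 arrays compared, 36 and 15 with trend and robust moderation, 139 and 27 with the replicate block and 156 and 23 with dim genes left out. Signals near background understate changes, and 23 of the 58 genes were there throughout.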
